A study of Mus musculus with 18 samples.

Results

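Small nucleolar RNA (snoRNA) genes were examined in total RNA of neural progenitor cells of the mouse cortex, which divide and produce cortical neurons and glia. The genes are those whose symbol starts with Snora or Snord and a number and that had at least 1 TPM in 6 or more of the 18 libraries. TPM is the abundance of a gene per length, scaled so that each library sums to 1000000. The rule kept 50 of 141 such genes in a table of 55573: 35 of box C/D type (Snord) and 15 of box H/ACA type (Snora). Because the rule used the levels, the levels themselves are given as description.

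The libraries form 3 groups of 6, each with replicates numbered 3, 4, 5, 6, 8 and 9. Cells of all groups were C57BL/6 and carried floxed Upf2 alleles. The Upf2 mock group (Upf2fl/fl) received medium alone, and the Upf2 Cre group (Upf2fl/fl) received AAV9-Cre, an adeno-associated virus that carries Cre recombinase. The Upf2 Trp53 Cre group (Upf2fl/fl Trp53fl/fl) received the same virus. The Upf2 protein is needed for nonsense-mediated mRNA decay and Trp53 encodes the transcription factor p53, and the study asked how the 2 interact in progenitors. The virus medium was replaced at 14 h and RNA was taken at 72 h. No mock of the doubly floxed cells and no virus without Cre was analysed here, so genotype and cell line, and Cre and virus, cannot be told apart. The labels call the replicates biological but do not say whether they came from separate animals, so the p-values measure the spread between these cultures. Depth is unknown because TPM keep no read totals.

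SnoRNAs are short nuclear RNAs that guide the chemical modification of other RNAs, above all ribosomal RNA. Box C/D snoRNAs bind fibrillarin, Nop56, Nop58 and Snu13 and direct ribose methylation, while box H/ACA snoRNAs bind dyskerin, Gar1, Nhp2 and Nop10 and direct the conversion of uridine to pseudouridine. Most mammalian snoRNAs lie in introns of other genes, are released when the host transcript is spliced and its intron debranched, and are trimmed by exonucleases. Some hosts are noncoding genes whose spliced transcripts are known targets of nonsense-mediated decay.

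The box C/D sequences below are of the snoRNAs on which the comparisons turn, with the 3 that share the noncoding host 2410006H16Rik shown together. They are the GENCODE M21 transcripts on GRCm38 (mm10), written 5′ to 3′ in DNA letters. Capitals mark the C box TGATGA near the 5′ end and the D box CTGA near the 3′ end.
Snord104: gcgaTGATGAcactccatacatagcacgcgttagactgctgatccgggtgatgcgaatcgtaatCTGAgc
Snord49a: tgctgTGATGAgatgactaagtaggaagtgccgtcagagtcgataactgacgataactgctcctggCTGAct
Snord49b: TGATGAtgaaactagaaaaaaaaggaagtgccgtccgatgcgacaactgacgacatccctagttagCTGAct
Snord65: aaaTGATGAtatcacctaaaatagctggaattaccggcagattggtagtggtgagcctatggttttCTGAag
Snord4a: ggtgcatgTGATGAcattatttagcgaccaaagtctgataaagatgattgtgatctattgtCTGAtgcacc
Snord92: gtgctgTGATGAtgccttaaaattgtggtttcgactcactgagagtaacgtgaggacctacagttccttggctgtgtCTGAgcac

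Snord49a and Snord49b shared 51 of 74 aligned bases (68.9%), and the longest run common to both was 13 bases, aggaagtgccgtc, which starts at base 23 of each. Snord65, from the same host, was 54.5% identical to Snord49a, and their longest shared run was the C box itself with 6 bases. How the authors treated reads that map to several places is not given in the sources used here.

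Among the 35 box C/D genes, TGATGA was found within the first 20 bases in 22 (62.9%) and CTGA within the last 20 in 34 (97.1%), searched on the transcript strand. Over all 99 Snord genes in the table the shares were 70.7% and 98.0%. The box H/ACA sequences follow for Snora31, the most abundant of its class, Snora73b, a snoRNA of the U17 family that acts in ribosomal RNA processing, and Snora78, which differed between the Cre groups. Capitals mark the first H box match ANANNA in the middle 30% of the RNA (N is any base) and the ACA in the last 8 bases.
Snora31: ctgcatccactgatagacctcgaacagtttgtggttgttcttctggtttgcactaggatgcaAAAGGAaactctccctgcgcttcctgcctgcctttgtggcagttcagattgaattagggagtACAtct
Snora73b: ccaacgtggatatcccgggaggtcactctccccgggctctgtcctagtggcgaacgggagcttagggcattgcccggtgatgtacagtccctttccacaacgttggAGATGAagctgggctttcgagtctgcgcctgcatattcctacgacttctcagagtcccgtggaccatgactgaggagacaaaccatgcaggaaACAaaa
Snora78: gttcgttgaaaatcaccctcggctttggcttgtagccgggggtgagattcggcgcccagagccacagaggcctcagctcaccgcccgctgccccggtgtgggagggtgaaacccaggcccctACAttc

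All 15 Snora genes of the set held an ACA in their last 8 bases and 14 (93.3%) held ANANNA in the middle. Snora78 was the exception for ANANNA. Over all 42 Snora genes the shares were 95.2% and 92.9%, and 0 of the 42 held the C box, so the sequence boxes matched the names of the 2 classes. The motif ANANNA is loose: 52.5% of the 99 Snord genes held it in the same window.

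The 50 genes were 64 to 238 bases long, with a median of 81 for box C/D and 137 for box H/ACA. Of them 47 lay inside a longer gene on the same strand, 39 in protein-coding and 8 in noncoding hosts, and 16 lay in 11 ribosomal protein genes. There were 37 different hosts, and 7 of them held 17 of the genes: Rpl13a, Rpl23a and 2410006H16Rik with 3 each, and Rpl3, Nop58, Wdr43 and Kansl2 with 2 each. Genes in 1 host share its transcript and are not independent. Snord104, Snora17 and Snora57 lay in no annotated host on their strand. A read from the mature snoRNA and a read from its span in an unspliced host transcript cannot be told apart in these values.

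The position of a snoRNA relative to the exons of its host separated the measured from the unmeasured genes. Of the 91 Snora and Snord genes below the minimum, 81 were listed at 0 TPM in all 18 libraries. Of these 81, 58 (71.6%) overlapped an exon of a longer gene on the same strand, compared with 2 of the 50 genes that passed (4%) and 4 of the other 10. Another 17 were copies of Snord116 in Snhg14, of which 14 shared their sequence with another copy, and the remaining 6 were neither. The 40 hosts whose exons they overlapped were themselves measured, at a median of 298 TPM (1.40 to 3480). How the authors' quantification assigned reads that fit a snoRNA and a host exon is not given in the sources used here, so a listed 0 is not a measure of absence.

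SnoRNAs of some noncoding hosts known as decay targets, picked by hand, fell in that class. Gas5 held 4 annotated Snord genes, Snhg12 held 5 snoRNA genes, Snhg5 held 2, and Snhg1, Snhg8, Snhg15 and Zfas1 held 1 each, and all 15 overlapped a host exon and were listed at 0. Snord80 in Gas5 and Snora16a in Snhg12 were each annotated as 2 genes of nearly the same span. The hosts were abundant: the means of Zfas1 were 102 TPM (mock), 809 TPM (Upf2 Cre) and 1053 TPM (Upf2 Trp53 Cre). Whether the snoRNAs of these hosts changed cannot be read from the table. Other noncoding hosts, such as Snhg6 with Snord87 and 2410006H16Rik, held snoRNA genes that were measured.

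At the threshold itself, Snord34 and Snord92 passed with 7 libraries at 1 TPM and Snord42a and Snora2b with 9. Snora5c missed it with 4 libraries, and Snora73a and Snora43 with 3, their highest values being 1.92, 2.60 and 1.88 TPM. Of 9 snoRNAs in the table on a list for ribosomal RNA processing, Snora73b alone passed. Snord92 passed through 5 Upf2 Trp53 Cre and 2 mock libraries, with 0 of 6 Upf2 Cre libraries at 1 TPM, so a difference between groups was partly built into its selection.

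Levels spanned a wide range and most were low. The mean over the 18 libraries ran from 0.696 TPM (Snord34) to 203 TPM (Snord104), with a median of 4.86 TPM. Of the 50 genes, 9 averaged at least 10 TPM and 26 under 5 TPM, 20 reached 1 TPM in every library, and 84 of the 900 values were 0. The spread between replicates was wider than for other genes: the median pooled SD on the log2(TPM + 1) scale was 0.78 for the snoRNA genes and 0.38 over all 15216 genes tested. The narrowest was Snord104 at 0.20.

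Snord104 (chromosome 11, 106500993 to 106501062, plus strand), which in human guides ribose methylation of large-subunit ribosomal RNA, was the most abundant in every library. Its share of the summed TPM of the 50 genes ran from 24.2% to 55.3%. Snord49a averaged 65.2 TPM and Snora31, in Tpt1, which encodes the translationally controlled tumour protein, on chromosome 14, averaged 31.4 TPM. They were followed by Snord83b (22.8 TPM, in Rpl3), Snora17 (21.9 TPM), Snord58b (16.1 TPM, in Rpl17), Snora30 (14.3 TPM, in Srcap) and Snord72 (12.8 TPM, in Rpl37). Snora73b, at 9.92 TPM, was the last of the first 10. The order within the first 10 is a description of means: apart from Snord104, neighbours in the order overlapped in range over the 18 libraries.

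**Figure D1:**
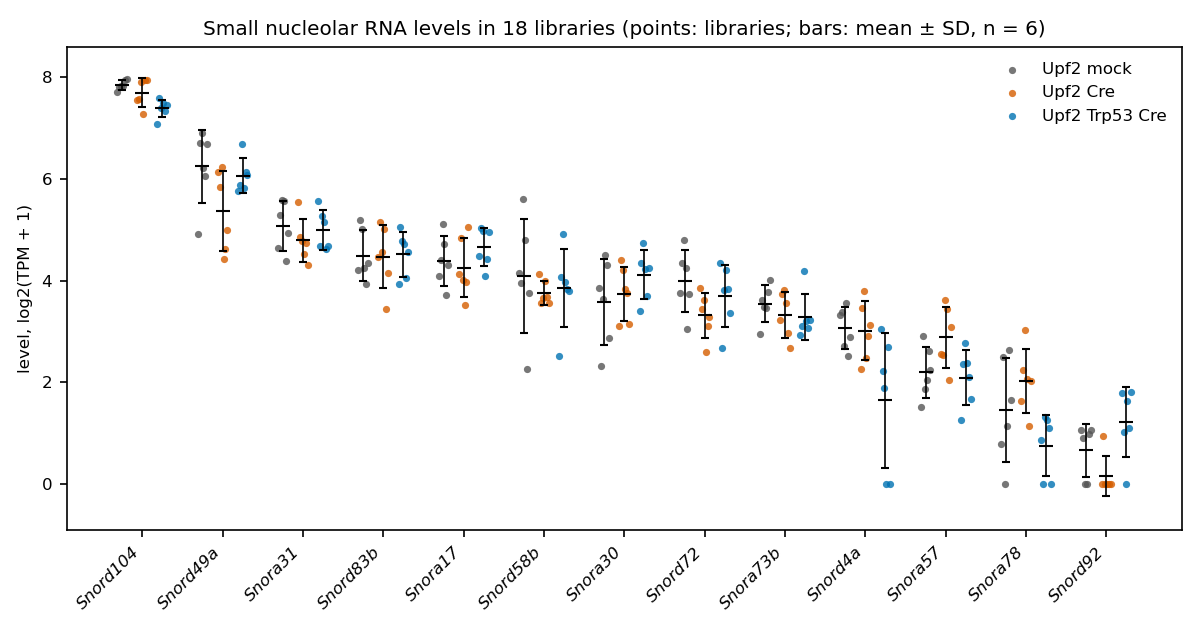
Levels of 9 of the 10 most abundant snoRNA genes and of Snord4a, Snora57, Snora78 and Snord92 on the log2(TPM + 1) axis. Points are libraries, colours are groups and bars are mean ± SD of 6 libraries; Snord104 lies above all others.

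Of the first 10, Snord49a passed the test in Upf2 Cre and Snord104 in Upf2 Trp53 Cre against mock, and both are described with those comparisons. Snord72 ranged from 7.28 to 26.9 TPM in mock (median 15.2), 5.05 to 13.4 in Upf2 Cre (median 9.32) and 5.38 to 19.3 in Upf2 Trp53 Cre (median 13.1). The highest values were in mock and the ranges overlapped, with a log2 difference of -0.67 (95% interval -1.30 to -0.04; limma, adjusted p = 0.078). Snora31 ranged from 20.1 to 47.2 TPM in mock (median 33.9), 18.9 to 46.0 in Upf2 Cre (median 26.0) and 23.6 to 46.4 in Upf2 Trp53 Cre libraries (median 29.8). Snord83b had medians of 18.7, 22 and 24.2 TPM in the same order. The groups overlapped for both, and their log2 differences lay between -0.28 and 0.20. For Snora73b the mock range was 6.71 to 15.2 TPM (median 10.7), the Upf2 Cre range 5.41 to 13.1 (median 9.59) and the Upf2 Trp53 Cre range 6.60 to 17.4 (median 7.95). Its log2 difference was -0.22 (95% interval -0.72 to 0.28) for Upf2 Cre and -0.26 (-0.76 to 0.24) for Upf2 Trp53 Cre against mock, which did not pass the test and leaves room for a change of either sign.

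Summed over the 50 genes, the libraries ran from 484 to 777 TPM in mock (median 635), from 446 to 627 in Upf2 Cre (median 525) and from 474 to 692 in Upf2 Trp53 Cre (median 518). The ranges of the 3 groups overlapped. Box C/D genes made up most of the sum, with medians of 516, 412 and 401 TPM, and box H/ACA genes had medians of 120.0, 113 and 119.9 TPM. Without Snord104 the medians were 397, 333 and 342 TPM. No test was made on these sums, because the genes were chosen by their level.

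**Figure D2:**
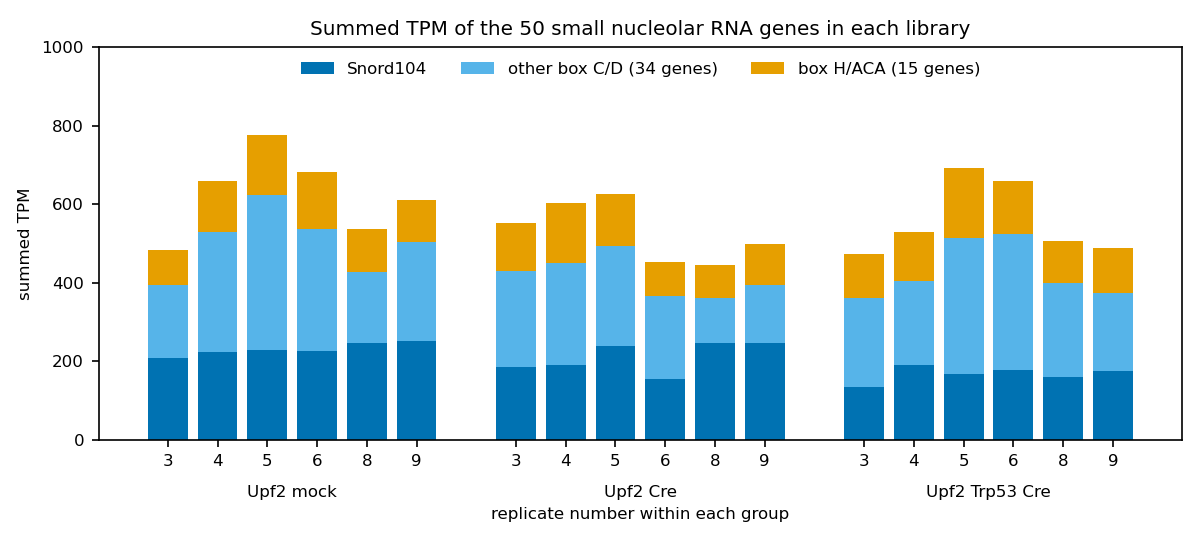
Summed TPM of the 50 snoRNA genes in each of the 18 libraries, stacked as Snord104, the other box C/D genes and the box H/ACA genes. Totals lie between 446 and 777 TPM, the groups overlap, and Upf2 Cre replicate 6 (453 TPM) is among the lowest. MicroRNA genes took 16.9% of the TPM of that library, which lowers all its other genes.

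Some libraries stood apart. Upf2 Cre replicate 6 was rich in the gene Gm23935, annotated as a microRNA, at 141092 TPM, or 14.1% of the library, against 551 to 9646 TPM in the 15 libraries not numbered 6. That richness did not extend to the snoRNA genes: their sum in this library was 453 TPM, the second lowest of the group, and 2 of the 50 were at their group's highest there while 14 were at its lowest. TPM sum to 1000000 in each library, and microRNA genes took 16.9% of this one, which lowers the TPM of every other gene. Protein-coding genes summed to 777388 TPM there, against 917630 to 933663 in the other Upf2 Cre libraries. The low snoRNA values of this library thus cannot be told apart from that scaling. Upf2 Cre replicate 3 resembled mock in the hosts: in all 15 hosts that fell in Upf2 Cre it was at or above the lowest mock library, compared with 0 to 3 of the 15 for the other 5 Upf2 Cre libraries. Upf2 mock replicate 3 held 1369.7 TPM of 2410006H16Rik, against 554 to 640.1 in the other mock libraries.

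The targeted genes and markers were read first. Mean Trp53 was 16.5 ± 1.69 TPM in the Upf2 Trp53 Cre libraries, compared with 104 ± 18.2 for mock and 138 ± 35.0 for Upf2 Cre (SD, n = 6), a log2 difference of -2.57 from mock (limma, adjusted p = 2.1e-09). Upf2 was higher, not lower, in both Cre groups (log2 differences 0.82 and 1.52 against mock, limma adjusted p = 0.0060 and 4.5e-05). The labels give genotype and virus but no Upf2 level, and a gene-level TPM does not measure a floxed exon. Loss of Upf2 can therefore not be read from these values. Directions below are those of the libraries as labelled. All 8 radial glia markers were tested and their summed TPM ran from 5049.8 to 13776 (mock), 3465 to 10344 (Upf2 Cre) and 4679 to 10712 (Upf2 Trp53 Cre). In Upf2 Cre 5 of the 8 fell against mock (6 without the libraries numbered 3, where 1 rose, and 2 without those numbered 6). Of all genes 24.2% were lower in that comparison, 33.3% without the libraries numbered 3 and 9.58% without those numbered 6. In Upf2 Trp53 Cre 1 of the 8 radial glia markers, Slc1a3, fell against mock and rose against Upf2 Cre. Neuron markers, with 5 of 8 tested, summed to 85.7 to 201 TPM over all libraries. Of them Map2 fell in Upf2 Cre against mock, Snap25 and Tubb3 rose in Upf2 Trp53 Cre against mock, and Snap25 rose in Upf2 Trp53 Cre against Upf2 Cre. Oligodendrocyte lineage markers, with 5 of 8 tested and 0 called, summed to 1200.3 to 4270.1 TPM. Microglia markers summed to at most 1.13 TPM with 3 of 8 at 0 throughout, and vascular markers to 0.985 to 1.40 in mock and 2.17 to 4.88 in Upf2 Trp53 Cre. Their part in the snoRNA results was not tested, and in bulk RNA fewer cells of a type and less RNA per cell cannot be told apart.

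Upf2 Cre against Upf2 mock asks what differs in Upf2-floxed progenitors given Cre. Of the 50 snoRNA genes 0 rose and 1 fell, Snord49a (limma, adjusted p under 0.05), or 2% of them. Over all 15216 genes tested, 40.7% were called, 16.5% higher and 24.2% lower. At an unadjusted p under 0.05 there were 5 snoRNA genes (10%). The share of all genes under this looser rule was not counted, but cannot be below the 40.7% called. In 0 of the 50 did the groups not overlap, against 5.86% of all genes.

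Snord49a (chromosome 11, 62603450 to 62603521, plus strand) lies in an intron of 2410006H16Rik and in human guides methylation of large-subunit ribosomal RNA. It ranged from 29.3 to 120 TPM in mock (median 87.6), from 20.5 to 74.3 in Upf2 Cre (median 43.6) and from 53.5 to 103 in Upf2 Trp53 Cre libraries (median 62.6). In Upf2 Cre the replicates 6 and 8 lay below every mock library and the other 4 lay within the mock range. The log2 difference was -0.87 ± 0.34 (SE; 95% interval -1.59 to -0.16; limma, adjusted p = 0.047), and means were 82.1 ± 32.8 and 45.8 ± 23.8 TPM (SD, n = 6). The call was lost in 12 of the 18 fits that left out 1 library. It was also lost with median-ratio scaling and when TPM were recomputed without microRNA genes, and the adjusted p ran from 0.0016 to 0.18 over all 31 alternatives.

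The host rose while Snord49a fell. 2410006H16Rik ranged from 554 to 1369.7 TPM in mock (median 602) and from 2426 to 3810.2 in Upf2 Cre (median 3116), without overlap, and rose by 2.16 on the log2 scale (95% interval 1.74 to 2.58; limma, adjusted p = 2.0e-06). Snord49b ranged from 1.27 to 12.8 TPM in mock (median 6.60) and from 2.15 to 6.37 in Upf2 Cre (median 2.79), with a log2 difference of -0.58 (-1.51 to 0.35; limma, adjusted p = 0.30). Snord65 had the lowest levels of the 3, at 0 to 5.08 TPM in mock and 0 to 8.81 in Upf2 Cre, with a difference of 0.52 (-0.66 to 1.71; limma, adjusted p = 0.47). The upper bounds of all 3 snoRNA genes lay below the lower bound of the host, for Snord65 only just (1.71 and 1.74). The log2(TPM + 1) scale understates differences of a gene as low as Snord65, and not those of the host. The difference between host and snoRNA was not tested in a model of its own.

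Across the 37 hosts, 15 fell (40.5%) and 2 rose (5.41%) in Upf2 Cre, against 24.2% lower and 16.5% higher over all genes. The 15 held 18 of the snoRNA genes, and 0 of the 18 were called lower. Of the 18, 14 had a difference below 0, with a median of -0.30 against -1.12 for their hosts, and the median of the 25 snoRNA genes in hosts that passed in neither direction was -0.15. Tpt1 had a difference of -1.66 and its Snora31 one of -0.28 (-0.78 to 0.23), and Rpl3 had -1.52 with its Snord83b at -0.02 (-0.62 to 0.57). Over the 47 pairs of snoRNA and host, Pearson's r of the log2 differences was 0.04, a description across genes that share libraries and, in part, hosts. In Upf2 Trp53 Cre r was -0.04 against mock and 0.34 against Upf2 Cre. In Upf2 Cre against mock without the libraries numbered 3, 18 of the 37 hosts fell (48.6%) and 3 rose (8.11%). Over all genes the shares were 33.3% and 25.5%. Without the libraries numbered 6, 8 hosts fell (21.6%) and 2 rose (5.41%), against 9.58% and 10.5% of all genes.

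Without the 3 libraries numbered 3, 8 snoRNA genes fell and 1 rose, against 33.3% lower and 25.5% higher over all genes. The 8 were Snord49a, Snora31, Snora41, Snord11, Snord32a, Snord53, Snord70 and Snord72, and the riser was Snord23. Without Upf2 Cre replicate 3 alone 3 fell and 2 rose, and 0 passed in either direction in 9 of the 18 fits that left out 1 library. Without the 3 libraries numbered 6, 0 passed. The share of snoRNA genes called thus stayed below that of all genes in each of these fits.

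The median log2 difference of the 50 was -0.17, and that of all genes was -0.12. Of the 50, 35 lay below 0 (70%), compared with 56.8% of all genes. With median-ratio scaling the medians were -0.09 and -0.03. The median 95% interval half-width was 0.84 for a snoRNA gene and 0.46 over all genes, so a difference of the size of the median would not be detectable for a single snoRNA gene.

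**Figure D3:**
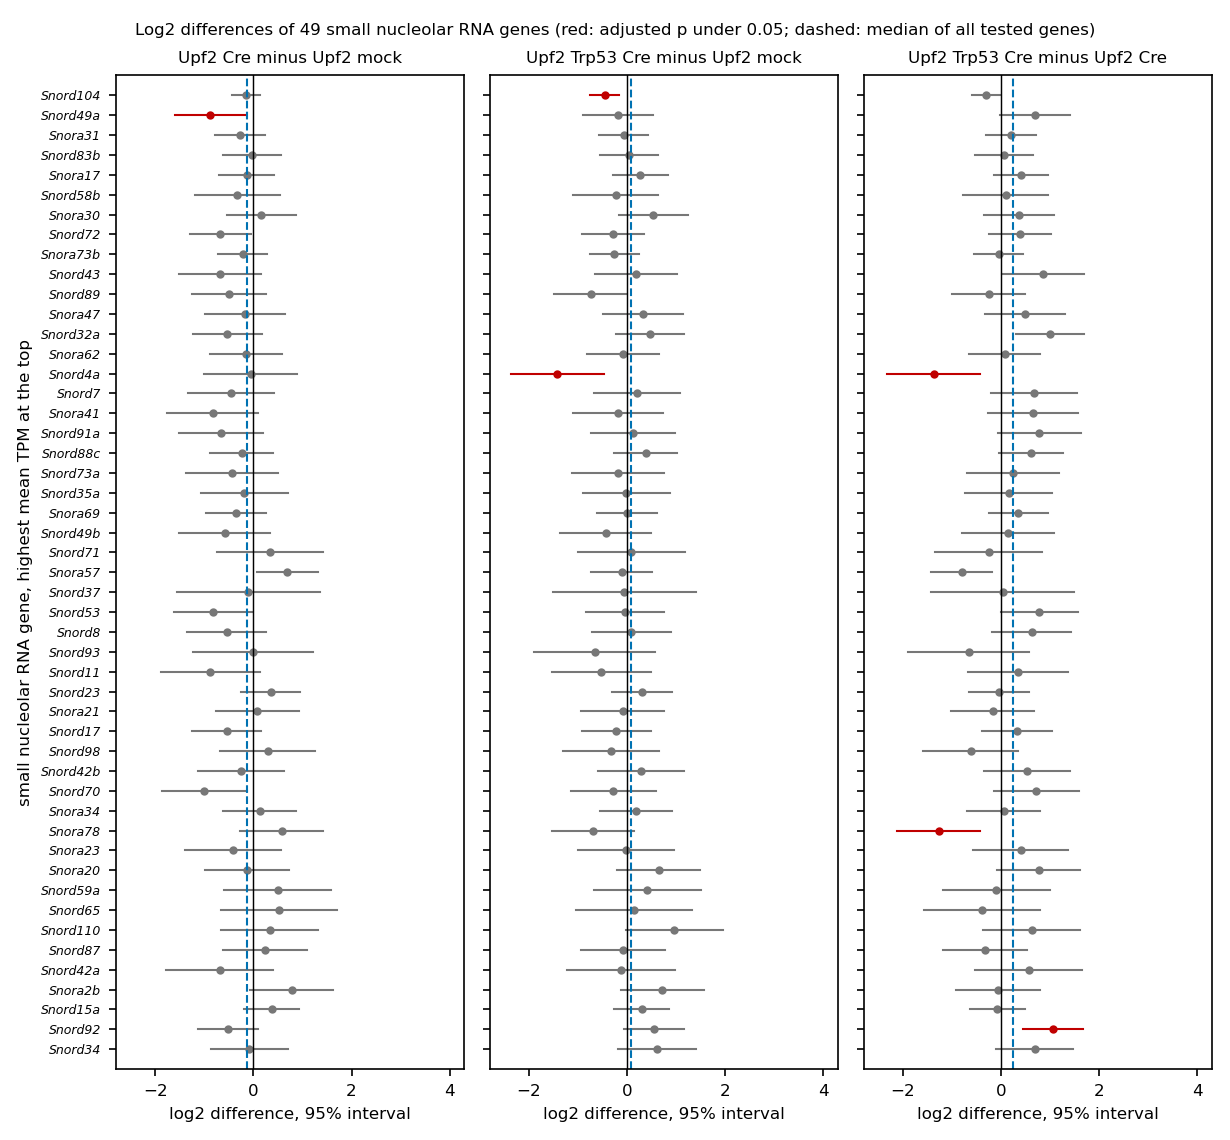
Log2 differences with 95% intervals of 49 of the 50 snoRNA genes, ordered by mean TPM, in the 3 comparisons. Red marks genes with an adjusted p under 0.05 (1, 2 and 3 genes) and the dashed line is the median of all genes tested.

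The second comparison sets the Upf2 Trp53 Cre libraries, where Trp53 was floxed as well, beside the mock of the singly floxed cells. Of the 50 snoRNA genes 0 rose and 2 fell (4%), Snord104 and Snord4a. Of all genes 11.5% were called, 10.4% higher and 1.09% lower. At an unadjusted p under 0.05 there were 3 snoRNA genes (6%). The share of all genes under this looser rule was not counted, but cannot be below the 11.5% called. The median log2 difference was -0.02 for the 50 and 0.08 for all genes, and with median-ratio scaling -0.14 and -0.06.

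Snord104 ranged from 210 to 251 TPM in mock (median 227), from 154 to 247 in Upf2 Cre (median 215) and from 135 to 192 in Upf2 Trp53 Cre (median 171). The mock and Upf2 Trp53 Cre libraries did not overlap, which was so for 1 of the 50 snoRNA genes (2%) and for 7.92% of all genes. The log2 difference was -0.46 ± 0.14 (SE; 95% interval -0.75 to -0.17; limma, adjusted p = 0.032), between means of 231 ± 15.2 and 168 ± 19.2 TPM (SD, n = 6). Upf2 Cre lay between, -0.15 from mock (-0.44 to 0.13), and Upf2 Trp53 Cre was -0.31 from Upf2 Cre (-0.59 to -0.02; limma, adjusted p = 0.12). The call was lost in 9 of the 18 fits that left out 1 library, with adjusted p up to 0.075 over all alternatives. It was also lost without the 3 libraries numbered 6.

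Snord4a (chromosome 11, 78181686 to 78181756, minus strand) lies in an intron of the ribosomal protein gene Rpl23a, on the strand opposite Tlcd1, and in human guides methylation of small-subunit ribosomal RNA. It ranged from 4.74 to 10.8 TPM in mock (median 7.75) and from 3.83 to 12.9 in Upf2 Cre (median 7.18). In Upf2 Trp53 Cre it ranged from 0 to 7.33 (median 3.20), with replicates 6 and 9 at 0. The libraries with 0 lay below all others, and replicates 3 and 8 lay within the range of the other groups. The log2 difference was -1.42 ± 0.45 (SE; 95% interval -2.37 to -0.48; limma, adjusted p = 0.047) against mock and -1.37 ± 0.45 (-2.31 to -0.42; limma, adjusted p = 0.048) against Upf2 Cre. Its host Rpl23a differed by -0.52 and 0.60 in the same comparisons, neither passing the test, and Tlcd1 by -0.04 and 0.23. Either call was lost in 12 of 18 fits that left out 1 library.

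The 2 other snoRNA genes of Rpl23a, Snord42a and Snord42b, did not pass the test. Of the 37 hosts, 3 rose (8.11%, against 10.4% of all genes) and 0 fell, and 0 of the 5 snoRNA genes in the risen hosts were called. The fit without the libraries numbered 3 had 5 hosts higher and 6 lower, and without those numbered 6 the counts were again 3 and 0. The shares of all genes higher and lower were 18.9% and 4.47% in the former fit and 6.01% and 0.499% in the latter. In 25 of the 47 pairs the host lay farther from 0 on the log2 scale, and in 22 the snoRNA gene did. AA465934 ranged from 16.8 to 22.6 TPM in mock (median 19.2) and from 144 to 265 in Upf2 Trp53 Cre (median 241), a rise of 3.48 on the log2 scale. Its Snord7 ranged from 3.06 to 7.57 TPM (median 6.23) and from 3.32 to 10.1 (median 6.90), a difference of 0.21 (-0.67 to 1.09; limma, adjusted p = 0.80). The host of Snord49a, 2410006H16Rik, rose by 2.61 to a range of 3406 to 4651 TPM, while Snord49a differed by -0.18 (-0.90 to 0.53; limma, adjusted p = 0.79). For both pairs the interval of the snoRNA lay below the host's difference.

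**Figure D4:**
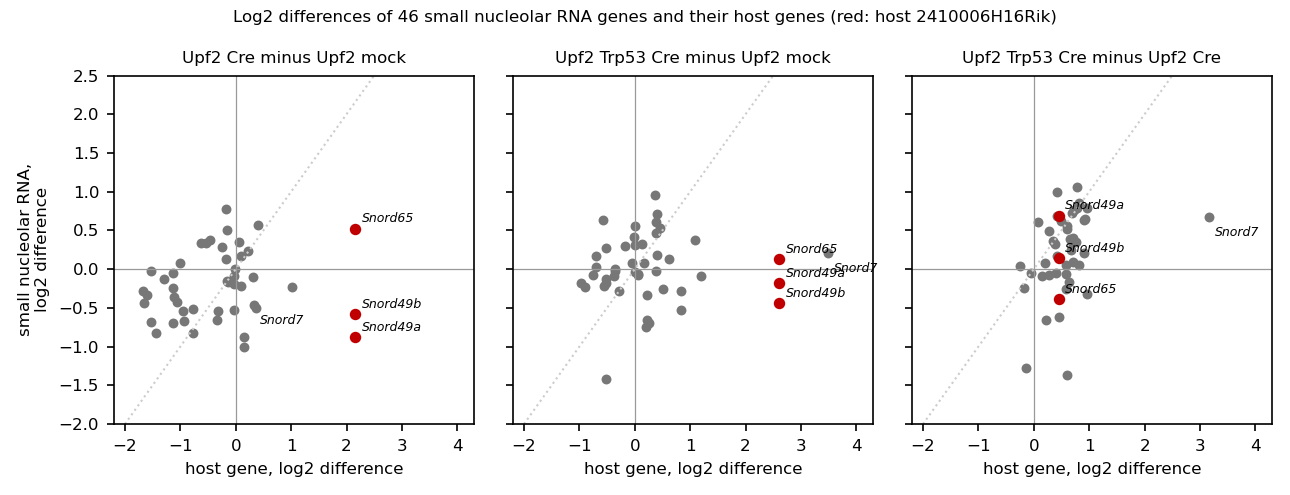
Log2 difference of 46 of the 47 snoRNA genes with a host (vertical) against that of their host genes (horizontal) in the 3 comparisons, with a dotted line where both are equal. The 3 snoRNA genes of 2410006H16Rik (red) lie far to the right of the line against mock, where the host differs by 2.16 and 2.61, and so does Snord7 where its host differs by 3.48.

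Upf2 Trp53 Cre against Upf2 Cre asks what the Trp53 genotype changes among cells given the virus. Of the 50 snoRNA genes 1 was called higher, Snord92, and 2 lower, Snord4a and Snora78 (6% in all), where 14.2% of all genes were called, 11.8% higher and 2.46% lower. At an unadjusted p under 0.05 there were 7 (14%). The share of all genes under this looser rule was not counted, but cannot be below the 14.2% called. In 0 of the 50 did the groups not overlap, against 2.72% of all genes. This comparison shares the Upf2 Cre libraries with the first and the Upf2 Trp53 Cre libraries with the second, so the calls of Snord4a are not separate observations.

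Snora78 (chromosome 17, 24719676 to 24719803, minus strand) lies in the noncoding gene Snhg9, opposite the ribosomal protein gene Rps2. It ranged from 0 to 5.26 TPM in mock (median 1.67), from 1.21 to 7.17 in Upf2 Cre (median 3.15) and from 0 to 1.5 in Upf2 Trp53 Cre (median 0.977). All 6 Upf2 Cre libraries were above 1 TPM, compared with 3 of 6 in Upf2 Trp53 Cre, and the groups overlapped. The log2 difference was -1.27 ± 0.40 (SE; 95% interval -2.11 to -0.43; limma, adjusted p = 0.042). Snhg9, itself at means of 1.54, 2.16 and 1.75 TPM, differed by -0.15 and Rps2 by -0.01. Whether the authors counted by strand is not given in the sources used here, so reads of Snora78 and Rps2 cannot be told apart with certainty.

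Snord92 (chromosome 17, 71631281 to 71631365, plus strand) lies in Wdr43, a gene of small-subunit ribosome assembly. It ranged from 0 to 1.08 TPM in mock (median 0.932), was above 0 in 1 of 6 Upf2 Cre libraries (0.938 TPM) and ranged from 0 to 2.52 in Upf2 Trp53 Cre (median 1.62). It reached the minimum of 1 TPM in 7 libraries, of which 5 were Upf2 Trp53 Cre and 0 were Upf2 Cre, so it entered the set largely through the group in which it was high and its call is not independent of the rule. The values are close to the smallest step seen, as the lowest value above 0 was 0.874 TPM. The log2 difference was 1.07 ± 0.29 (SE; 95% interval 0.46 to 1.68; limma, adjusted p = 0.024). Wdr43 differed by 0.78 (0.11 to 1.46; limma, adjusted p = 0.098). The call of Snord92 was lost in 7 of 18 fits that left out 1 library, and that of Snora78 in 12.

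Leaving out Upf2 Cre replicate 5, 6, 8 or 9 or Upf2 Trp53 Cre replicate 6, each alone, left 0 calls in this comparison. Leaving out all 3 libraries numbered 6 also left 0, with 0.789% of all genes higher and 0.743% lower. Without the libraries numbered 3, 5 snoRNA genes rose and 2 fell, against 28.0% and 8.71% of all genes. The risers were Snord92, Snord32a, Snord34, Snord49a and Snord70. The median log2 difference of the 50 was 0.29 and that of all genes 0.25, which became 0.07 and 0.02 with median-ratio scaling. With that scaling the number of snoRNA genes above 0 moved from 34 to 26 of 50. Of the 37 hosts 6 rose between the Cre groups (16.2%, against 11.8% of all genes) and 0 fell. The median host difference was 0.59, and 0 of the 7 snoRNA genes in the risen hosts were called. Without the libraries numbered 3, 21 hosts rose, and 1 rose without those numbered 6. With median-ratio scaling 1 host rose.

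Snora57 and Snord32a, chosen after their values were seen, were among the genes just short of a call. Snora57 (chromosome 19, 8888538 to 8888685, minus strand, opposite Lbhd1), which in human guides pseudouridylation of small-subunit ribosomal RNA, ranged from 1.86 to 6.52 TPM in mock (median 3.41). It ranged from 3.14 to 11.4 in Upf2 Cre (median 6.19) and from 1.41 to 5.85 in Upf2 Trp53 Cre (median 3.71). Upf2 Cre held the highest values and overlapped with both other groups. The log2 difference was 0.69 against mock (0.07 to 1.31; limma, adjusted p = 0.069) and Upf2 Trp53 Cre differed from Upf2 Cre by -0.80 (-1.42 to -0.17; limma, adjusted p = 0.071). Under median-ratio scaling and under quantile normalization Snora57 passed as higher in Upf2 Cre. Snord32a, in Rpl13a, differed by 0.99 between the Cre groups (0.30 to 1.69; limma, adjusted p = 0.051).

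Genes of the snoRNA machinery were read from lists written with general knowledge. Of the 4 core box C/D proteins, 1 fell and 0 rose in Upf2 Cre against mock: Snu13, which binds the motif formed by the C and D boxes, at 178 ± 35.3 and 114 ± 41.7 TPM (SD, n = 6; log2 difference -0.68, limma, adjusted p = 0.012). The median of the 4 was -0.19. Of all genes 24.2% were lower and 16.5% higher in that comparison. In Upf2 Trp53 Cre against mock 0 of the 4 passed the test, with a median of 0.37. Against Upf2 Cre 1 rose, Nop56 (0.91, limma, adjusted p = 0.047), with a median of 0.63. Of all genes 10.4% were higher and 1.09% lower against mock, and 11.8% and 2.46% against Upf2 Cre. Fbl, which encodes the methyltransferase fibrillarin, differed by 0.15, 0.38 and 0.22 in the 3 comparisons and did not pass. Of the 4 core box H/ACA proteins 0 passed in any comparison, with medians of -0.03, 0.19 and 0.29. Dkc1, which encodes the pseudouridine synthase dyskerin, had the lowest difference against mock in Upf2 Cre, -0.79 (limma, adjusted p = 0.074). Without the libraries numbered 6 none of the 8 core proteins passed in any comparison. Without those numbered 3, Snu13, Nop56, Dkc1 and Nop10 fell in Upf2 Cre against mock, Gar1 rose in Upf2 Trp53 Cre against mock, and Nop56, Nop58, Snu13, Dkc1 and Nop10 rose in Upf2 Trp53 Cre against Upf2 Cre. In that fit 33.3% of all genes were lower in the first comparison, and 18.9% and 28.0% were higher in the other 2.

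Of 20 tested genes for snoRNA processing and assembly, 8 fell and 0 rose in Upf2 Cre against mock, with a median of -0.53. Znhit3, a factor of box C/D particle assembly, ranged from 20.3 to 30.2 TPM in mock (median 24.9) and from 6.02 to 30.9 in Upf2 Cre (median 8.47), a log2 difference of -1.13 (limma, adjusted p = 0.0049). Dbr1, which opens intron lariats, differed by -1.01, and the trimming genes Parn, Xrn2 and Exosc10 by -0.86, -0.88 and -0.40. Ruvbl1, Lsm6 and Larp7 made up the 8 with -0.99, -1.05 and -0.80. In Upf2 Trp53 Cre 0 of the 20 passed against mock (median -0.02), and 5 rose against Upf2 Cre (median 0.59): Znhit3, Ruvbl1, Parn, Exosc10 and Shq1. The counts became 15 lower in Upf2 Cre against mock and 13 higher between the Cre groups without the libraries numbered 3. Without those numbered 6, 3 fell (Lsm6, Parn and Znhit3) and 0 rose. The count against mock in Upf2 Trp53 Cre was 0 in both fits. The share of all genes called lower in Upf2 Cre was 24.2%, and the median of all genes -0.12. That share was 33.3% without the libraries numbered 3 and 9.58% without those numbered 6. Between the Cre groups 11.8% of all genes were higher, 28.0% without the libraries numbered 3 and 0.789% without those numbered 6.

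Other small structured RNAs were mostly below the minimum, as 5 of 22 in the table were tested. Scarna6, of the small Cajal body RNAs that guide modification of spliceosomal RNAs, ranged from 0.560 to 2.61 TPM in mock (median 0.982), from 0.598 to 1.81 in Upf2 Cre (median 1.05) and from 1.29 to 3.64 in Upf2 Trp53 Cre (median 3.08). The groups overlapped, and it rose by 0.75 against mock and by 0.85 against Upf2 Cre (limma, adjusted p = 0.039 and 0.023). The first call was lost without the libraries numbered 3 and the second without those numbered 6. The other 4 did not pass in any comparison, although Rn7sk passed as higher in Upf2 Cre against mock and lower between the Cre groups without the libraries numbered 3. Of 16 tested noncoding snoRNA hosts on a list of Snhg genes, 7, 9 and 1 rose in the 3 comparisons and 0 fell, with medians of 0.65, 1.26 and 0.37. Of all genes 16.5%, 10.4% and 11.8% were higher. Without the libraries numbered 3, 8, 10 and 6 rose and Snhg4 fell in the first comparison, and without those numbered 6, 7, 9 and 0 rose. The shares of all genes higher were 25.5%, 18.9% and 28.0% in the former fit and 10.5%, 6.01% and 0.789% in the latter. The snoRNA genes measured here lie mostly in other hosts, since 8 of the 50 have noncoding ones.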

How the data were processed

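Total RNA of 18 cultures was sequenced with the TruSeq Stranded Total RNA kit, which is not a small RNA kit, from RNA with integrity numbers of at least 9.0, per the labels' protocols. STAR and the mm10 genome are named in the submitters' processing notes. The quantification tool, its annotation and its strand setting are not given in the sources used here. The deposited table holds TPM made by the authors, so no count test was used and no counting interval can be given.

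The values were taken as log2(TPM + 1). The limma package 3.58.1 (R 4.3.3) fitted 3 group means, with moderation and a trend, to the 15216 genes that reached 1 TPM in 6 or more libraries. Tests were two-sided with Benjamini-Hochberg adjustment over all 15216 and a threshold of 0.05, and log2 differences understate changes of low genes. The method was tested on simulated data. The simulation drew independent normal values for each gene, without a lower floor and without an effect shared by same-numbered libraries. It thus does not cover these features of the low snoRNA genes. All 50 snoRNA genes were matched to GENCODE M21 by gene ID, and alignments used Biopython 1.88. Hosts are genes on the same strand that hold the whole snoRNA gene. Where several did, the gene with the highest mean TPM was taken. The host pairs and the split into protein-coding and noncoding hosts depend on that choice. Tables were made with pandas 2.3.3 and plots with Matplotlib 3.10.9 under Python 3.11.15.

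The snoRNA genes, lists and tests were chosen with earlier results of these data known. Named genes are Upf2, Trp53, the 10 snoRNA genes with the highest mean, those called in a comparison, those at the threshold, the listed ribosomal RNA processing snoRNAs, hosts of these, and up to 6 genes of each other list. Genes named outside that rule were chosen after their values were seen. The individual values of 1 of the 50 snoRNA genes and of its host are not reported here, while counts and medians over all 50 include it.

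Alternatives were a pseudocount of 0.1, no minimum, quantile normalization, a minimum mean of 5 TPM, TPM without snoRNA genes, median-ratio scaling, no trend, the replicate number as a block, library weights, only the compared groups, each library left out, and the 3 libraries numbered 3 left out. TPM without microRNA genes and leaving out the 3 libraries numbered 6 were added after seeing the data.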

Additional observations from a re-analysis of the deposited data

Results flagged for a closer look

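Within groups of 6 libraries, a highest or lowest value was noted when its gap to the next library, as a share of the group's range, exceeded Dixon's 95% critical value. Of 63 groups looked at, 7 passed that mark; chance flags about 1 in 20 groups. Gm23935, annotated as a microRNA, passed it through replicate 6 of mock (20334 TPM) and of Upf2 Cre (141092 TPM).

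Upf2 Trp53 Cre replicate 5 stood above its group for Snord49a (102.9 TPM) and for Snora73b (17.4 TPM). This library was also the highest of its group for 20 of the 50 snoRNA genes. Snora31 was highest in Upf2 Cre replicate 3, at 46.0 TPM. Snord92 was at 0.938 TPM in Upf2 Cre replicate 4 and at 0 in the other 5 libraries of that group. The host 2410006H16Rik was at 1369.7 TPM in mock replicate 3, below every library of the Cre groups.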

How the results depend on the processing

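Of 14 log2 differences of 9 genes that were recomputed under the alternatives, 0 changed sign. The genes were named with these values known and the alternatives used largely the same libraries. A kept sign was therefore likely beforehand and is no separate support. Counts of snoRNA genes called higher and lower are given as pairs, in the order Upf2 Cre against mock, Upf2 Trp53 Cre against mock, and Upf2 Trp53 Cre against Upf2 Cre, where the main counts were 0 and 1, 0 and 2, and 1 and 2. They were 0 and 1, 1 and 1, and 1 and 0 with a pseudocount of 0.1, and 0 and 0, 0 and 1, and 1 and 0 with no minimum. Shares of all genes higher and lower are given in the same order. With the pseudocount of 0.1 they were 16.5% and 24.5%, 10.5% and 1.03%, and 12.1% and 2.37%. With no minimum they were 7.49% and 8.37%, 6.64% and 0.459%, and 5.29% and 1.31%. A mean of at least 5 TPM gave 0 and 1, 0 and 2, and 1 and 1. The shares of all genes were then 19.9% and 29.3%, 10.5% and 1.15%, and 15.1% and 3.04%. Median-ratio scaling gave 1 and 0, 0 and 2, and 1 and 3, and quantile normalization 1 and 0, 0 and 2, and 0 and 3. Median-ratio scaling called 20.2% and 20.9%, 6.40% and 3.15%, and 2.00% and 4.78% of all genes. Quantile normalization called 19.6% and 21.1%, 7.10% and 3.14%, and 3.54% and 3.89% of them. Without a trend they were 0 and 1, 0 and 2, and 2 and 2, and with only the compared groups 0 and 1, 0 and 1, and 1 and 1. Library weights gave 2 and 11, 2 and 5, and 4 and 5. With them 31.1% and 40.2%, 31.3% and 16.9%, and 41.3% and 15.6% of all genes were called. Without the libraries numbered 3 the counts were 1 and 8, 0 and 2, and 5 and 2. The shares of all genes were 25.5% and 33.3%, 18.9% and 4.47%, and 28.0% and 8.71%. Of the settings chosen after seeing the data, TPM without microRNA genes gave 0 and 0, 0 and 2, and 1 and 2. Leaving out the libraries numbered 6 gave 0 and 0, 1 and 0, and 0 and 0. TPM without microRNA genes called 18.4% and 22.2%, 10.5% and 1.20%, and 9.11% and 2.78% of all genes. Without the libraries numbered 6 the shares were 10.5% and 9.58%, 6.01% and 0.499%, and 0.789% and 0.743%. Leaving out each library in turn, the counts higher ran from 0 to 2, 0 to 1 and 0 to 4, and those lower from 0 to 4, 0 to 2 and 0 to 3. The cause of these changes was not tested.

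Groups share replicate numbers, and in 14 of 18 pairs of same-numbered libraries deviations correlated over 0.1 (range -0.17 to 0.74). Of the 18 libraries, 11 matched best with their own number. The main fit left the replicate number out, so an effect shared by same-numbered libraries stayed in its spread. With the replicate block the counts were 2 and 2, 1 and 2, and 3 and 3. The shares of all genes higher and lower were then 22.1% and 30.8%, 16.6% and 2.88%, and 23.6% and 5.65%. Hosts called higher between the Cre groups went from 6 to 16 of 37 with the block. Without Snord104 the median summed TPM of the snoRNA genes were 397 (mock), 333 (Upf2 Cre) and 342 (Upf2 Trp53 Cre). Most levels are under 5 TPM with unknown depth, so a gene that was not called is not shown to be stable.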
